A study of Homo sapiens with 6 samples.

Results

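The 10 genes described here encode the 5 subunits of the transcription factor NF-κB (*NFKB1*, *NFKB2*, *REL*, *RELA* and *RELB*) and 5 of its inhibitors (*NFKBIA*, *NFKBIB*, *NFKBIE*, *NFKBIZ* and *TNFAIP3*). They were chosen by symbol from the 30017 genes of the count table, and all 10 were among the 14758 genes that had enough counts to be tested. Total RNA was sequenced from BLaER1-CTCF-mAID, a human B cell leukemia subclone whose chromatin protein CTCF is fused to an auxin-inducible degron. In BLaER1 cells, estradiol activates an introduced C/EBPα fusion protein and, together with the cytokines IL-3 and CSF-1, converts the cells into induced macrophages. There were 2 biological replicates of undifferentiated cells (0 h), of cells 96 h after addition of these factors (96 h control), and of cells that received the auxin indole-3-acetic acid (IAA) together with the factors and were also collected at 96 h (96 h CTCF-depleted). All 6 libraries come from the same degron line, and both groups at 96 h were compared to the same 0 h libraries. No line without the degron was treated with IAA here, so that effects of IAA and of CTCF depletion cannot be told apart.

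NF-κB is a family of dimeric transcription factors that control inflammatory and survival genes in B cells and macrophages. In resting cells, IκB proteins hold the dimers in the cytoplasm. The IKK kinase complex marks the IκB proteins for degradation when receptors for cytokines or microbial products are engaged, and the dimers then enter the nucleus, where they bind κB sites in DNA. *NFKB1* and *NFKB2* encode precursors of the DNA-binding subunits p50 and p52, which lack a transactivation domain. *RELA*, *REL* and *RELB* encode the subunits that carry one. *NFKBIA*, *NFKBIB* and *NFKBIE* encode the classical inhibitors IκBα, IκBβ and IκBε, whereas *NFKBIZ* encodes IκBζ, which acts in the nucleus. *TNFAIP3* encodes A20, a ubiquitin-editing enzyme that limits the signal to IKK. Several of these inhibitors are themselves known targets of NF-κB, and sequences near transcription starts of the genes are therefore shown first.

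Promoter windows from RefSeq (GRCh38.p14, 250 bases before to 50 bases after a transcription start) were matched for 8 of the 10 genes, with 14 windows in all; *RELB* and *NFKBIE* were not matched. The κB consensus, a motif of 10 bases, was searched on both strands. It was found in 9 of these windows and in 7 of the 8 genes, with *RELA* as the gene without a match. Among all RefSeq windows of this length, 11.27% held a match, and 13.25% of all genes had at least 1. The genes were chosen as parts of this pathway, so these shares are a description only, and a match is not evidence of binding. The match nearest to the start is shown for each gene with its surrounding bases, 5′ to 3′ on the strand of the gene, with the κB match in capitals. For *NFKBIZ*, the match in the window of the start further upstream is shown. The matches shown for *NFKB2*, *REL* and *NFKBIB* precede the RefSeq start of their window but lie after the first annotated start of the gene.
NFKB1 (chr4:102501300-102501329, plus strand): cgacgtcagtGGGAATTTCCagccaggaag
NFKB2 (chr10:102395674-102395703, plus strand): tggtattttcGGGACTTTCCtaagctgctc
REL (chr2:60881518-60881547, plus strand): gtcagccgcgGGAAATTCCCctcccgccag
NFKBIA (chr14:35404811-35404840, minus strand): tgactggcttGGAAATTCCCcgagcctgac
NFKBIB (chr19:38899932-38899961, plus strand): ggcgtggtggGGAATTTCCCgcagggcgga
NFKBIZ (chr3:101827757-101827786, plus strand): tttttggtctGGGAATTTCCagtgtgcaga

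The sequence upstream of *TNFAIP3* is shown at greater length, because *TNFAIP3* is the gene of this family that passed both thresholds after CTCF depletion. It covers 205 bases (chr6:137867009-137867213, plus strand, GRCh38.p14) that end just before the first annotated start of the gene, and its 2 κB matches, in capitals, lie at the end nearest to the gene.
TNFAIP3: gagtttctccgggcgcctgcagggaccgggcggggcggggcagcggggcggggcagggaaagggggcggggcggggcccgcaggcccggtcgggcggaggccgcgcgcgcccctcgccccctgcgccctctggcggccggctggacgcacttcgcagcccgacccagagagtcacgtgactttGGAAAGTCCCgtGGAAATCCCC
The matches of *TNFAIP3* both read in the opposite direction to the gene, as do those shown for *NFKBIA*, *REL* and *NFKBIB*. For *REL* and *NFKBIB*, however, a match in the direction of the gene overlaps the one shown. Its first base lies at -47 against -46 from the start in *REL* and at -28 against -27 in *NFKBIB*. The sites of *REL* and *NFKBIB* thus have no single direction. The matches shown for *NFKB1*, *NFKB2* and *NFKBIZ* read in the direction of the gene.

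Total counts ranged from 9273470 to 12718780 per library. Values are given as raw counts and as CPM, in which counts are scaled to library size with TMM factors. The summed level of 12 B cell marker genes was 3514 and 3474 CPM at 0 h, 433 and 442 CPM in control and 445 and 457.5 CPM in CTCF-depleted libraries, and that of 12 macrophage markers was 87.1 and 79.6, 5795 and 5543, and 5374 and 5328 CPM in the same order. Between control and CTCF-depleted cells, 10 of the 12 B cell markers had a log2 fold change below 0 (median -0.17), with *VPREB1*, *IGLL1* and *RAG1* called lower and *CD22* and *VPREB3* called higher. Without *CD22*, left out after its value was seen, the sum was 400.7 and 404.6 CPM in control and 347 and 362 CPM in CTCF-depleted libraries. All 12 B cell markers were lower and all 12 macrophage markers were higher at 96 h than at 0 h in both comparisons. Of 6 T cell markers, *CD2* was the one with enough counts to be tested, at 40 and 38 counts in control and 54 and 55 in CTCF-depleted libraries, and *CD3D*, *CD3G* and *CD7* had 0 counts in every library. The *CTCF* transcript, on which the degron does not act, was at 2048 and 1875 counts in control libraries and at 2062 and 2051 after CTCF depletion (log2 fold change 0.10, adjusted p = 0.119 in edgeR). In bulk RNA, fewer cells of a type and less RNA per cell cannot be told apart.

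During differentiation with CTCF, the NF-κB genes rose more often than they fell. Genes were called where the adjusted p of edgeR's quasi-likelihood test was below 0.01 and the log2 fold change lay beyond 0.6 in either direction. On this basis, 5 of the 10 genes were higher in 96 h control than in 0 h cells (*REL*, *RELB*, *NFKBIA*, *NFKBIE* and *NFKBIZ*), and 1 was lower (*TNFAIP3*). Across all tested genes, 25.4% were higher and 22.9% were lower in this comparison. The median log2 fold change was 0.60 over the 10 genes and 0.01 (0.015) over all tested genes.

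After CTCF depletion, 1 of the 10 genes was higher than in control cells at 96 h (*TNFAIP3*) and 0 were lower, compared to 5.41% and 7.03% of all tested genes. DESeq2 also called 0 genes lower, and 2 genes (*NFKBIA* and *NFKBIE*) were below control at an unadjusted p below 0.05 in edgeR. Without the fold change threshold, 3 genes were higher (*NFKB1*, *NFKBIZ* and *TNFAIP3*) and 0 were lower, compared to 12.0% and 17.4% of all tested genes. The libraries of the 2 groups did not overlap in 9 of the 10 genes, compared to 67.9% of all tested genes. With an adjusted p cutoff of 0.05 and any fold change, 6 of the 10 genes were called in either direction, compared to 38.7% of all tested genes. The median log2 fold change was 0.22 over the 10 genes and -0.03 over all tested genes.

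Between 0 h and CTCF-depleted cells, 6 of the 10 genes were higher, namely the 5 genes named above and *NFKB1*, and 0 were lower. The background was 27.2% and 25.2% of all tested genes. With an adjusted p cutoff of 0.05 and any fold change, all 10 genes were called in either direction, compared to 77.5% of all tested genes. DESeq2 also called 0 genes lower. *NFKBIB* and *TNFAIP3* were below their 0 h level at adjusted p = 8.99e-04 and 1.26e-04 in edgeR, and missed only the fold change threshold.

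**Figure D1:**
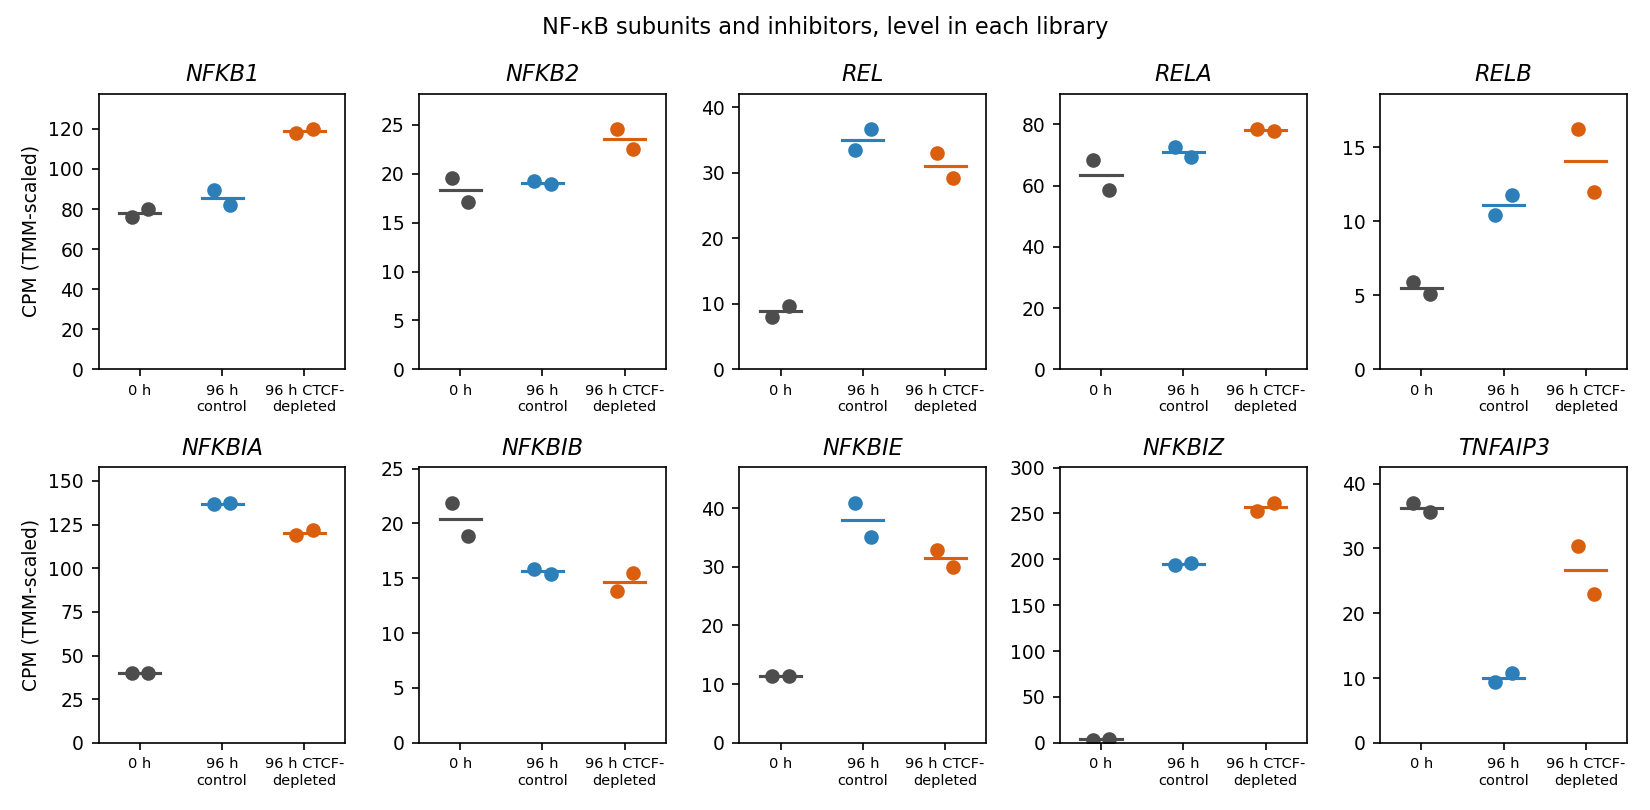
Level of each of the 10 genes in CPM scaled with TMM factors, in the 2 libraries (points) of the 0 h, 96 h control and 96 h CTCF-depleted groups, with the group mean as a line; each panel has its own axis from 0. NFKBIZ lies at 3.30 and 4.05 CPM at 0 h and at 194 to 261 CPM in the 4 libraries at 96 h, and TNFAIP3 falls to 9.36 and 10.7 CPM in control and lies between 22.9 and 30.4 CPM in CTCF-depleted libraries.

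*NFKB1*, which encodes the p50 precursor (chromosome 4, 102501330 to 102617302, hg38), had 738 and 1069 counts at 0 h, 1013 and 884 in control and 1276 and 1299 after CTCF depletion. In CPM, this is 76.1 and 80.2 at 0 h, 89.4 and 81.9 in control and 118 and 119.7 after CTCF depletion. Both CTCF-depleted libraries lay above all 4 others. The level in control cells was not called different from that at 0 h (log2 fold change 0.13, standard error 0.07, adjusted p = 0.0772 in edgeR). CTCF-depleted cells were 1.39-fold above control (log2 fold change 0.47, standard error 0.07, adjusted p = 2.43e-08 in edgeR), which is below the fold change threshold. Relative to 0 h, the log2 fold change of 0.60 (0.603) was just past this threshold, and *NFKB1* lost its call there in 3 of 11 alternative analyses.

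*NFKB2*, the p52 precursor gene of the alternative pathway (chromosome 10, 102394110 to 102402524), was at 19.6 and 17.1 CPM at 0 h, 19.2 and 19.0 CPM in control and 24.5 and 22.6 CPM in CTCF-depleted libraries. The 0 h and control libraries overlapped. The CTCF-depleted libraries were the highest, with a log2 fold change of 0.30 from control (standard error 0.11, adjusted p = 0.0326 in edgeR), which did not pass the thresholds.

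*REL*, which encodes c-Rel, a subunit abundant in lymphocytes (chromosome 2, 60881491 to 60931612), was the subunit gene with the largest change during differentiation. It had 78 and 129 counts at 0 h, 379 and 395 in control and 356 and 316 after CTCF depletion. Its level was 8.05 and 9.68 CPM, 33.4 and 36.6 CPM, and 33.0 and 29.1 CPM, respectively. All 4 libraries at 96 h thus lay above both at 0 h. The control level was 3.90-fold that at 0 h (log2 fold change 1.96, standard error 0.12, adjusted p = 6.36e-22 in edgeR). CTCF-depleted libraries were slightly below control without overlap, but the log2 fold change of -0.17 (standard error 0.10) was not called (adjusted p = 0.162 in edgeR). The non-coding RNA genes *RNU4-51P* and ENSG00000267520 overlap *REL* on the same strand and were not analysed here.

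*RELA*, which encodes p65, the main transactivating partner of p50 (chromosome 11, 65653599 to 65663090), varied least among the subunit genes that carry a transactivation domain. It was at 68.4 and 58.7 CPM at 0 h, 72.6 and 69.5 CPM in control and 78.3 and 77.9 CPM in CTCF-depleted libraries. The groups did not overlap and followed in this order, but none of the log2 fold changes reached the threshold: 0.17 from 0 h to control (adjusted p = 0.0414), 0.14 from control to CTCF-depleted (adjusted p = 0.149) and 0.31 from 0 h to CTCF-depleted (adjusted p = 2.79e-04, all in edgeR). *RELA-DT*, a non-coding RNA gene, overlaps *RELA* on the opposite strand and was not analysed here.

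*RELB*, the transactivating partner of p52 in the alternative pathway (chromosome 19, 45001461 to 45038192), had the fewest counts of the subunit genes, with 57 and 68 at 0 h, 118 and 127 in control and 175 and 130 in CTCF-depleted libraries. In CPM, this is 5.88 and 5.10, 10.4 and 11.8, and 16.2 and 12.0. The control level was 2.03-fold that at 0 h (log2 fold change 1.02, standard error 0.19, adjusted p = 2.12e-06 in edgeR). The CTCF-depleted libraries were both above control, but they differed from each other by more than the second lay above the control libraries. The difference of 0.35 on the log2 scale (standard error 0.16) was not called (adjusted p = 0.079 in edgeR), and it was 0.15 without the first and 0.58 without the second CTCF-depleted library.

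Among the classical inhibitors, *NFKBIA* (chromosome 14, 35401079 to 35404749), whose product IκBα restrains p65 and is resynthesized after each round of activation, had 390 and 532 counts at 0 h, 1548 and 1484 in control and 1283 and 1324 after CTCF depletion. Its level was 40.2 and 39.9 CPM at 0 h, 136.6 and 137.4 CPM in control and 119 and 122 CPM after CTCF depletion. The replicates lay close together and the 3 groups were separate. *NFKBIA* was 3.42-fold higher in control than in 0 h cells (log2 fold change 1.77, standard error 0.07, adjusted p = 4.43e-31 in edgeR). The difference between CTCF-depleted and control cells, a log2 fold change of -0.19 (standard error 0.06), passed neither threshold (adjusted p = 0.0113 in edgeR).

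*NFKBIE*, the gene of IκBε (chromosome 6, 44258166 to 44265788), showed the same order of the groups. It was at 11.4 CPM in both 0 h libraries, at 40.9 and 35.0 CPM in control and at 32.9 and 30.03 CPM in CTCF-depleted libraries, without overlap between groups. The log2 fold change was 1.73 from 0 h to control (standard error 0.11, adjusted p = 5.75e-21 in edgeR) and -0.27 from control to CTCF-depleted cells (standard error 0.09, adjusted p = 0.0176 in edgeR).

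*NFKBIB*, the gene of IκBβ (chromosome 19, 38899700 to 38908893), did not rise. It was at 21.9 and 18.9 CPM at 0 h, 15.9 and 15.4 CPM in control and 13.8 and 15.5 CPM in CTCF-depleted libraries. Both groups at 96 h lay below 0 h, with log2 fold changes of -0.37 in control (adjusted p = 0.00681) and -0.47 in CTCF-depleted cells (adjusted p = 8.99e-04, both in edgeR) that did not reach the fold change threshold. The control and CTCF-depleted libraries overlapped (log2 fold change -0.09, adjusted p = 0.619 in edgeR). *SIRT2* overlaps this gene on the opposite strand, and the strand setting of the counting is not given in the sources used here.

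*NFKBIZ*, the gene of the nuclear protein IκBζ, which is needed for a later wave of inflammatory genes in macrophages (chromosome 3, 101827991 to 101861022), had by far the largest change among the 10 genes. Its counts were 32 and 54 at 0 h, 2198 and 2115 in control and 2731 and 2838 in CTCF-depleted libraries. This is 3.30 and 4.05 CPM, 194 and 196 CPM, and 253 and 261 CPM, with the 3 groups well apart. The control level was 52.1-fold and the CTCF-depleted level 68.7-fold that at 0 h (log2 fold changes 5.70 and 6.10, standard errors 0.10 and 0.09, adjusted p = 1.83e-49 and 1.81e-51 in edgeR). At 96 h, CTCF-depleted cells were 1.32-fold above control (log2 fold change 0.40, standard error 0.05, adjusted p = 3.99e-09 in edgeR), short of the fold change threshold. *NFKBIZ* shares a stretch of its locus with *NXPE3* on the same strand. *NXPE3* went from 67.8 ± 1.46 to 99.3 ± 2.52 CPM between control and CTCF-depleted libraries (SD, n = 2 each). On the log2 scale this is 0.55 (adjusted p = 2.31e-07 in edgeR), below the threshold, and how far its reads contribute to the *NFKBIZ* count was not tested.

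*TNFAIP3*, the gene of the ubiquitin-editing enzyme A20 (chromosome 6, 137867214 to 137883314, plus strand), was the one gene of the 10 called lower during differentiation. It had 359 and 475 counts at 0 h, 106 and 116 in control and 328 and 249 after CTCF depletion. The level was 37.0 and 35.6 CPM at 0 h, 9.36 and 10.7 CPM in control and 30.4 and 22.9 CPM after CTCF depletion. The control libraries were the lowest, and both CTCF-depleted libraries lay between them and the 0 h libraries, without overlap.

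In control cells, *TNFAIP3* fell 3.61-fold from 0 h to 96 h (log2 fold change -1.85, standard error 0.12, adjusted p = 2.06e-20 in edgeR). At 96 h, CTCF-depleted cells were 2.65-fold above control (log2 fold change 1.41, standard error 0.13, adjusted p = 8.41e-14 in edgeR), and this difference equals the difference between the changes from 0 h with and without CTCF. The log2 fold change stayed between 1.23 and 1.63 over 11 alternative analyses, with adjusted p-values from 5.84e-29 to 6.43e-07 in edgeR or DESeq2. Relative to 0 h, CTCF-depleted cells had a log2 fold change of -0.44 (-0.445, adjusted p = 1.26e-04 in edgeR), which did not reach the fold change threshold. Without the first CTCF-depleted library, the higher of the pair, the log2 fold change relative to 0 h was -0.66 and passed both thresholds. *WAKMAR2*, a non-coding RNA gene, overlaps the start of *TNFAIP3* on the opposite strand and was not analysed here.

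**Figure D2:**
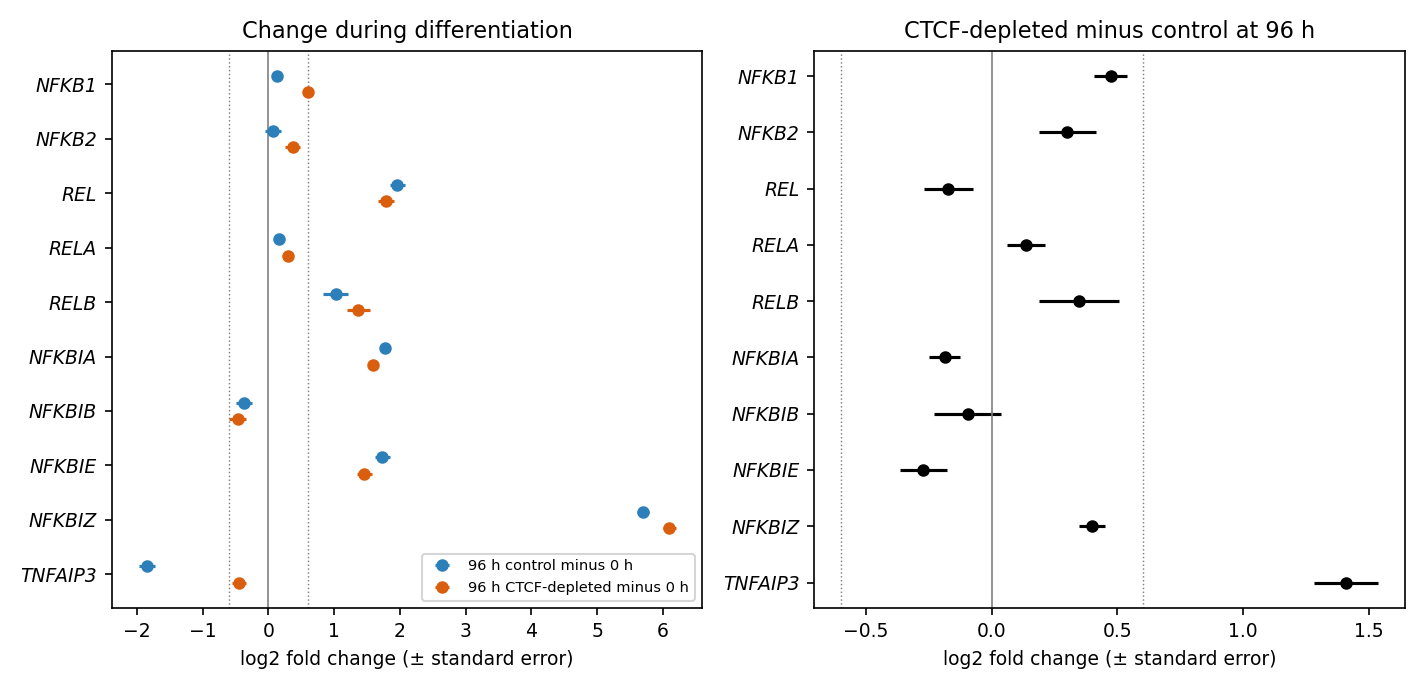
Log2 fold change with standard error (edgeR) of each of the 10 genes, on the left for 96 h control (blue) and 96 h CTCF-depleted (orange) against the same 0 h libraries and on the right for CTCF-depleted against control at 96 h; dotted lines mark the fold change threshold of 0.6. TNFAIP3 is the gene below -0.6 on the left in control cells (-1.85) and the gene above 0.6 on the right (1.41), and NFKBIZ is far to the right at 5.70 and 6.10.

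To compare levels between genes, CPM were divided by the length of the exons of protein-coding transcripts in kilobases. On this scale, *NFKBIA* was the highest of the 10 genes in each group, at 17.9 ± 0.10 CPM per kb at 0 h, 61.3 ± 0.26 in control and 53.8 ± 1.00 in CTCF-depleted cells (SD, n = 2 each). At 0 h, *NFKB1* (17.2 ± 0.63) and *RELA* (15.9 ± 1.72) followed, and their libraries overlapped. *NFKBIZ* was last at 0 h (0.74 ± 0.11), where it overlapped with *REL* (0.79 ± 0.10), and it was second in both groups at 96 h (39.2 ± 0.27 and 51.6 ± 1.22, with 51.65 before rounding). *TNFAIP3* went from the fifth place at 0 h (7.47 ± 0.20) to the last in control (2.07 ± 0.20) and the ninth in CTCF-depleted cells (5.48 ± 1.08).

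The ranks between these extremes were in part not distinct. At 0 h, *NFKBIB*, *TNFAIP3*, *NFKB2*, *NFKBIE* and *RELB* followed in this order from the fourth to the eighth place, and each neighbouring pair was separate. In control cells, *NFKB1* and *RELA* overlapped at the third and the fourth place, and *NFKB2* and *RELB* at the seventh and the eighth. In CTCF-depleted cells, *NFKBIB*, *RELB*, *NFKB2* and *TNFAIP3*, from the sixth to the ninth place, each overlapped with the next, whereas *NFKB1* was separate from *RELA*.

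The summed level of the 5 subunit genes was 42.4 and 39.9 (39.95) CPM per kb at 0 h, 50.5 and 48.9 (48.85) in control and 62.2 and 59.7 in CTCF-depleted libraries. *NFKB1* and *RELA* made up most of it in every library. The share of *RELA* was 40.4% and 36.7% at 0 h, 36.0% (35.95%) and 35.5% in control and 31.5% and 32.6% after CTCF depletion. The share of *NFKB1* was 39.6% and 44.2%, 39.0% and 36.9%, and 41.9% and 44.2%, lower in both control libraries than in the others. *REL* contributed 1.68% and 2.15% at 0 h, 5.87% and 6.63% in control and 4.70% and 4.32% in CTCF-depleted libraries. The share of *RELB* was 5.89% ± 0.35 at 0 h, 9.88% ± 1.08 in control and 10.2% ± 1.88 in CTCF-depleted cells (SD, n = 2 each). The shares depend on the transcript lengths used, and they were not tested.

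**Figure D3:**
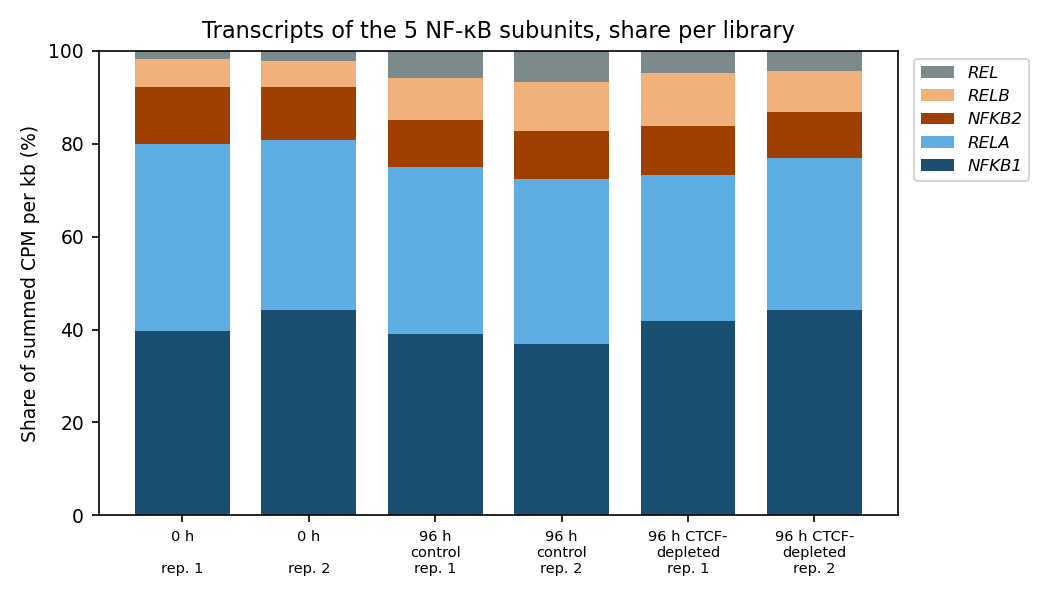
Share of each of the 5 subunit genes in their summed CPM per kb (%), as stacked bars for the 6 libraries. NFKB1 and RELA are the largest segments of every bar, and the REL segment grows from at most 2.15% at 0 h to between 4.32% and 6.63% at 96 h.

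The other genes of the pathway were described in 4 lists, whose counts are to be read against the shares of all tested genes given above: 5.41% higher and 7.03% lower after CTCF depletion, 25.4% and 22.9% from 0 h to control, and 27.2% and 25.2% from 0 h to CTCF-depleted cells. With a log2 fold change beyond 1, the share after CTCF depletion was 5.73% in either direction. Of 25 kinases and adaptors that carry the signal to the IκB proteins, 24 were tested. After CTCF depletion, 1 was higher and 1 was lower than in control cells at 96 h, close to the background, and the median log2 fold change was 0.10 (0.105). *PRKCQ*, a protein kinase C best known from T cell receptor signalling, was at 24.5 ± 2.10 CPM at 0 h, 8.28 ± 0.86 in control and 13.4 ± 0.57 in CTCF-depleted cells (SD, n = 2 each). It was called lower than at 0 h in control (log2 fold change -1.56) and in CTCF-depleted cells (-0.86). CTCF-depleted cells were above control (log2 fold change 0.69, adjusted p = 1.99e-04 in edgeR). *IRAK2*, a kinase downstream of interleukin-1 and Toll-like receptors, had 318 and 322 counts in control and 158 and 150 in CTCF-depleted libraries. It fell 2.03-fold (log2 fold change -1.02, standard error 0.12, adjusted p = 7.95e-10 in edgeR). During differentiation, 10 genes of this list rose and 2 fell in control cells, and 12 rose and 3 fell in CTCF-depleted cells. *IRAK2* had 11 and 15 counts at 0 h.

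In the alternative pathway, in which the kinase NIK releases p52 and RelB, 8 of 8 genes were tested, and 2 were higher and 1 was lower after CTCF depletion (median log2 fold change 0.23, 0.225 before rounding). *CD40*, a receptor of B cells and macrophages that activates this pathway, rose from 14.9 ± 1.41 to 25.8 ± 1.86 CPM (SD, n = 2 each; log2 fold change 0.79, adjusted p = 4.63e-07 in edgeR). *BIRC2*, which encodes a ubiquitin ligase that limits NIK, rose from 45.8 ± 0.28 to 71.5 ± 1.17 CPM (SD, n = 2 each; log2 fold change 0.64, adjusted p = 7.98e-10 in edgeR). *TNFRSF13C*, which encodes the BAFF receptor of B cells, was at 311 and 410 counts at 0 h and fell from 34 and 22 counts in control to 9 and 12 in CTCF-depleted libraries (log2 fold change -1.37, standard error 0.35, adjusted p = 0.00134 in edgeR). It was not called without the first control library (log2 fold change -1.03, adjusted p = 0.0741 in edgeR) or without the first CTCF-depleted library (log2 fold change -1.15, adjusted p = 0.0296 in edgeR). From 0 h, 4 genes of this list rose and 1 fell in control and likewise in CTCF-depleted cells.

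Among the other IκB proteins and ubiquitin regulators, 17 of 18 genes were tested, with 1 higher and 2 lower (median log2 fold change 0.11). The 2 lower genes, *BCL3* and *NFKBID*, encode nuclear IκB proteins like *NFKBIZ*. *BCL3* was at 62 and 82 counts at 0 h, 985 and 956 in control and 514 and 509 in CTCF-depleted libraries. *NFKBID* was at 45 and 78, 824 and 889, and 425 and 444 counts. Both genes thus rose during differentiation, as *NFKBIZ* did, but were lower in CTCF-depleted than in control cells (log2 fold changes -0.89 and -0.95, standard errors 0.07 (0.075) and 0.08, adjusted p = 3.5e-15 and 3.05e-15 in edgeR), whereas *NFKBIZ* had a log2 fold change of 0.40. *NFKBIL1*, a gene of the same IκB-like family, rose from 9.75 ± 0.44 to 15.4 ± 0.01 CPM (SD, n = 2 each; log2 fold change 0.66, 0.655 before rounding, adjusted p = 3.22e-04 in edgeR), but was not called by DESeq2 (adjusted p = 0.0195). From 0 h, 6 genes of this list rose in control and 8 in CTCF-depleted cells.

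Of 40 textbook NF-κB target genes, 23 were tested, and 4 were higher and 2 were lower after CTCF depletion (median log2 fold change 0.09). *IL1B*, the gene of the cytokine interleukin-1β, had 29 and 24 counts at 0 h, 342 and 307 in control and 858 in each CTCF-depleted library. It was 2.70-fold above control (log2 fold change 1.43, standard error 0.08, adjusted p = 6.39e-22 in edgeR). *TNF*, the gene of tumor necrosis factor, was at 80 and 95 counts in control and 175 and 187 in CTCF-depleted libraries (log2 fold change 1.08, adjusted p = 1.62e-07 in edgeR).

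The chemokine gene *CCL3* went from 104 and 89 to 183 and 173 counts (log2 fold change 0.91, adjusted p = 8.1e-06 in edgeR). *BCL2A1*, a survival gene of the BCL2 family, had 0 counts in both 0 h libraries, 7 and 4 in control and 17 and 18 in CTCF-depleted libraries (log2 fold change 1.68, standard error 0.53, adjusted p = 0.009 in edgeR), close to the adjusted p threshold and at low counts. It passed the filter on low counts only through the CTCF-depleted group, where it is high, so its call is a description only. This call was lost with any single library of the 2 groups left out (log2 fold change 1.40 to 2.12). In those fits the remaining library is assumed to vary like the other groups. It was also lost with a replicate block (adjusted p = 0.0137 in edgeR) and without the filter on low counts (adjusted p = 0.0187 in edgeR). DESeq2 gave no adjusted p for *BCL2A1*. The lower genes were *CD83*, a surface protein of activated B and dendritic cells, at 106 and 119 against 43 and 48 counts (log2 fold change -1.27, adjusted p = 3.42e-07), and *IRF1*, an interferon regulatory factor, at 850 and 805 against 490 and 486 counts (log2 fold change -0.73, adjusted p = 1.5e-11, both in edgeR). Of the 17 targets that were not tested, *IL6* had the highest count in a single library (15), and *CXCL1*, *CXCL2*, *CXCL3*, *PTGS2*, *SELE* and *VCAM1* had 0 in every library. From 0 h, 15 targets rose and 5 fell in control cells, and 15 rose and 5 fell in CTCF-depleted cells, with *BCL2A1* among those that rose in both.

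**Figure D4:**
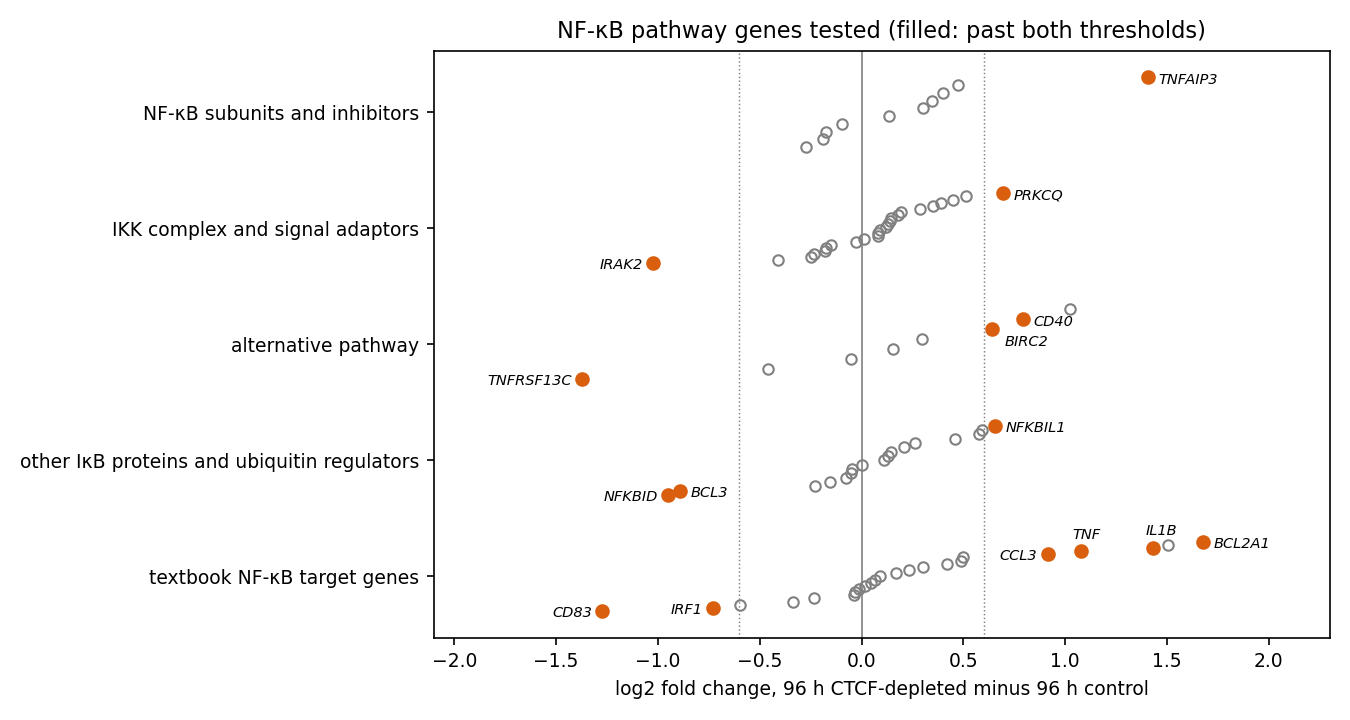
Log2 fold change of CTCF-depleted minus control cells at 96 h for each tested gene of the 10 NF-κB subunits and inhibitors and of 4 lists of pathway genes, ordered by value within each row; filled points are past both thresholds and named, and dotted lines mark the fold change threshold of 0.6. TNFAIP3 (1.41), IL1B (1.43) and BCL2A1 (1.68) lie furthest to the right of the named genes, and TNFRSF13C (-1.37) and CD83 (-1.27) furthest to the left.

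CTCF partitions chromosomes into domains, and the nearest tested gene on either side of each of the 10 genes was therefore examined, among those with a position. Of 20 such neighbours, with starts 0.2 to 3538.9 kb away, 2 were higher and 1 was lower after CTCF depletion, near the background of 5.41% and 7.03%. Of the 14758 tested genes, 1353 had no position in the annotation and could not be picked. None of the 3 adjoins *TNFAIP3*: its neighbours *IFNGR1* and *KIAA1244* had log2 fold changes of -0.03 (-0.025, adjusted p = 0.806 in edgeR) and 0.29 (0.285, adjusted p = 0.567 in edgeR), the latter at 17 to 31 counts per library at 96 h. *RALGAPA1*, 404.6 kb from *NFKBIA*, had 362 and 413 counts in control and 917 and 875 in CTCF-depleted libraries (log2 fold change 1.24, adjusted p = 4.92e-19 in edgeR). *RINL*, 21.4 kb from *NFKBIB*, had 69 and 48 against 144 and 143 counts (log2 fold change 1.32, 1.325 before rounding, adjusted p = 1.9e-08 in edgeR). *SLC35B2*, 7.9 kb from *NFKBIE*, had 189 and 211 against 97 and 73 counts (log2 fold change -1.20, adjusted p = 5.34e-09 in edgeR). In each of these 3 cases the NF-κB gene itself was not called, with log2 fold changes of -0.19, -0.09 and -0.27.

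The genes whose pattern over the 6 libraries was most like that of *TNFAIP3*, by the root mean square difference of log2 CPM after centring each gene on its own mean, were *GSTA4* (0.15), *TMEM74* (0.17) and *SLC22A5* (0.17), compared to a standard deviation of 0.79 of *TNFAIP3* about its own mean. *GSTA4*, which encodes a glutathione transferase, had mean levels of 11.02, 2.95 and 8.08 CPM in 0 h, control and CTCF-depleted cells. *SLC22A5*, which encodes a carnitine transporter, was at 8.76, 2.17 and 5.59 CPM. *TMEM74* was at 2.69, 0.77 and 2.03 CPM. As the genes were picked for this likeness, their values are a description without a test.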

How the data were processed

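RNA-seq was performed by the authors with 2 biological replicates per condition from ribosomal RNA-depleted total RNA. The deposited values are raw counts per gene symbol without normalization. The paper describes alignment of reads to hg38 with STAR 2.6.1d and counting of protein-coding exons with featureCounts 2.0.6. The 30017 symbols of the count table also include noncoding RNA genes. The annotation release and strand setting are not given in the sources used here. Starting from these counts, genes were filtered with filterByExpr, scaled with TMM and fitted in 1 quasi-likelihood model of all 6 libraries with edgeR 4.0.16 in R 4.3.3, with group as the only term and Benjamini-Hochberg adjustment over 14758 genes, which hold 99.9% of all counts. Standard errors are the log2 fold change divided by the square root of F. Summaries used Python 3.11.15 with pandas 2.3.3, and plots matplotlib 3.10.9. Positions and lengths are from GENCODE 44, and promoters from RefSeq.

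The scripts were tested on simulated data. In each group, replicates differed by more than sampling noise (chi-square per degree of freedom 2.76, 1.92 and 1.73) and were used as separate samples. With 2 libraries per group, p-values rest on the spread estimated across genes (common biological coefficient of variation 3.96%). A single count from amplified reads covers counting error only, whereas the standard errors and p-values also include the spread between replicates. Alternatives were DESeq2 1.42.0, other scalings, filters, samples and thresholds, a replicate block and leaving out each library. The 10 genes, the lists and the tests were chosen with earlier results of these data known. Genes named are the 10, listed pathway genes past both thresholds after CTCF depletion (all if up to 8 in a list), the 3 genes most like a called member, and nearest neighbours past both thresholds. The neighbours of *TNFAIP3*, overlapping genes, marker genes and genes with too few counts were named after their values were seen.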

Additional observations from a re-analysis of the deposited data

Results flagged for a closer look

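The change of *TNFAIP3* from 0 h to 96 h differed between cells with and without CTCF depletion. On the log2 scale it was -1.85 with CTCF and -0.44 (-0.445) without, which differ by 1.41 (standard error 0.13; edgeR's quasi-likelihood test over all genes gave an adjusted p of 8.41e-14). Both CTCF-depleted libraries lay above both control libraries and below both 0 h libraries. Each group holds 2 libraries, and both changes use the same 0 h libraries. Of 12 B cell markers, 2 were called higher and 3 lower in CTCF-depleted than in control cells, and 10 had a log2 fold change below 0 (median -0.17). Their sum was 433 and 442 CPM in control and 445 and 457.5 CPM in CTCF-depleted libraries, or 400.7 and 404.6 against 347 and 362 CPM without *CD22*. Their part in the difference was not tested.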

How the results depend on the processing

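Over 11 alternative analyses of each of the 10 genes, 108 of 110 fold changes between control and 0 h, 109 of 110 between CTCF-depleted and control and 106 of 110 between CTCF-depleted and 0 h kept their direction and their call, which takes both thresholds together. The adjusted p alone crossed 0.01 in 5, 3 and 10 of these. A group with 1 library left was assumed to vary like the other groups. *NFKB2* changed sign between 0 h and control, to -0.05 (-0.051) with scaling by total counts only, which shifted the median of all tested genes to -0.10 (from 0.01, 0.015), and ranged from -0.078 to 0.153 with single libraries left out. *NFKBIB* ranged from -0.15 to 0.03 (0.025) between CTCF-depleted and control cells with single libraries left out. None of these values was called. *NFKB1*, at 0.60 relative to 0 h in CTCF-depleted cells, fell short of the threshold at 0.52 with total counts only, 0.597 without a filter and 0.595 without the first 0 h library. *TNFAIP3* reached -0.66 in this comparison without the first CTCF-depleted library.

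With an adjusted p below 0.05 and no fold change threshold, 6 of the 10 genes were called between CTCF-depleted and control cells. In this comparison, 13 of 24 tested genes of the IKK list and 4 of 8 of the alternative pathway were called. The other IκB list had 8 of 17 and the textbook targets 15 of 23, compared to 38.7% of all tested genes. Between CTCF-depleted and 0 h cells, all 10 genes were called, compared to 77.5% of all tested genes. With an absolute log2 fold change above 1, the IKK list had 1 gene called in edgeR and the alternative pathway 1. The other IκB list had 0 and the textbook targets 4 of 23, compared to 5.73% of all tested genes. The other IκB list had 5 genes called with total counts only, 5 without a filter and 5 with only the 4 libraries compared, and 4 to 5 with single libraries left out. The cause was not tested. Whether replicate numbers pair the samples is not given in the sources used here. Over all tested genes, the differences between replicates were close to uncorrelated between groups (correlations -0.0194, 0.0109 and -0.0294). With a replicate block the calls among the 10 genes were 6, 1 and 6 in the 3 comparisons, as without it. With the longest transcript as length, the share of *RELA* was 42.1%, 39.5% and 35.5% in the 3 groups. That length is 3183 bases for *RELA* and 4153 for *NFKB1*, compared to 4001 and 4540 bases of exons. The order of *RELA* and *NFKB1* at 0 h and in control thus depends on the length used. Low counts at 0 h, as for *NFKBIZ* (32 and 54), *RELB* (57 and 68) and *REL* (78 and 129), limit the precision of those genes.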
